A study of Bos taurus with 32 samples.

Results

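Chromogranin A (CHGA), neuropeptide Y (NPY), the GABA-A receptor subunit beta-1 (GABRB1), chromogranin B (CHGB), secretogranin II (SCG2) and proenkephalin (PENK) were followed in bovine endometrium. They were chosen from a list of 7 genes by the symbol that the array gives its probes. SCG5, the seventh, had no probe and was left out, so 6 genes with 1 probe each were studied among 15208 probes. CHGA, NPY and GABRB1 entered the list for their differences between RB and non-RB cows or between areas in these same arrays. Values in those comparisons, and in comparisons built from them, are therefore given as description with no test. Tests are given for horns and for related genes. The tissue came from non-lactating Japanese Black cows slaughtered at Day 15 after estrus, of which 4 were repeat breeder (RB) cows and 4 normally fertile (non-RB) cows. RB cows had failed to conceive after repeated inseminations. Non-RB cows had conceived, had then been aborted with the prostaglandin analogue cloprostenol and had cycled again, a treatment described for these cows alone. Caruncular (CAR) and intercaruncular (ICAR) endometrium was dissected from the horn on the side of the corpus luteum (ipsilateral) and from the opposite horn (contralateral), giving 32 one-colour arrays, 4 for each group, area and horn. Arrays with the same number within a group were taken as the same cow.

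Neuroendocrine cells and neurons store peptides in dense-core granules and release them when calcium rises. Granins such as CHGA, CHGB and SCG2 are the soluble proteins that pack these granules, and NPY and PENK are precursors that convertases and amidating enzymes trim into active peptides. GABRB1 belongs to a chloride channel that opens on binding GABA. In ruminants CAR is the aglandular area where placentomes form, and ICAR carries the uterine glands.

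Each array probe is a 60-base oligonucleotide, and the RNA was labelled from an oligo-dT primer, so the levels below describe the stretch of transcript under that oligonucleotide. The last 30 bases of each probe are shown because all that is known of these genes here rests on a single 60-base probe each. Capitals mark the letters AATAAA, the commonest polyadenylation signal, searched on the strand of the probe as the array lists it.
CHGA: ttatctaaggaaAATAAAtctgctctgggc
NPY: tccagtctctgcctctttttcagcccccat
GABRB1: caattctaatcaaatccaaccaactacagt
CHGB: tctaatagtctgactttcagatccattctt
SCG2: gctcacatataatagagtgtcctacaagtc
PENK: tttatttttgacacaatgccAATAAAtgcc
AATAAA was present in the CHGA and PENK probes, and in 11.3% of all probes on the array. None of the 6 full sequences was used by another probe. Signals of different probes cannot be set against each other, so each gene is compared only with itself.

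Levels are log2 of the scanner's processed intensity, with the 75th percentile of each array set to 0. CHGA, NPY and PENK were well above background on all 32 arrays, CHGB on 21, GABRB1 on 14 and SCG2 on 8, and no spot of these genes was saturated. Readings with the scanner's outlier flag were treated as missing, namely CHGA in contralateral CAR of non-RB 2 and PENK in ipsilateral ICAR of non-RB 2. The 75th percentile lay between 1165 and 4857 intensity units, and 74.3% to 85.8% of probes were well above background per array. Contralateral CAR of non-RB 2 and contralateral ICAR of non-RB 1 were uneven arrays. Their repeated spots had a log2 SD of 1.32 and 0.87, against a median of 0.15 over arrays. They held 351 and 100 outlier-flagged spots, against a median of 2. Both were kept. The number of cows, 4 per group, limits the precision for every gene. Readings near background limit it further for CHGB, GABRB1 and SCG2.

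The area labels were checked with FOXA2 and SPDEF, transcription factors of the uterine gland epithelium. PRSS23, also on the gland list, leaned to neither area (CAR minus ICAR 0.08, SE 0.22, by cow) and was not used. FOXA2 was higher in ICAR than in CAR of the same cow and horn in 14 of 16 pairs, and SPDEF in 15 of 16. In the contralateral horn of RB 3 the order was turned. FOXA2 stood at -0.44 in the library labelled CAR and at -3.87 in the library labelled ICAR, and SPDEF at 1.19 and -2.79. FOXA2 was also turned in the ipsilateral horn of non-RB 2, at -1.11 in CAR and -2.76 in ICAR, whereas SPDEF was not, at -2.09 and -1.74. The labels were kept. Area differences, and other values that move by a wide margin, are also given without the contralateral RB 3 pair, an alternative chosen after the data were seen.

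**Figure D1:**
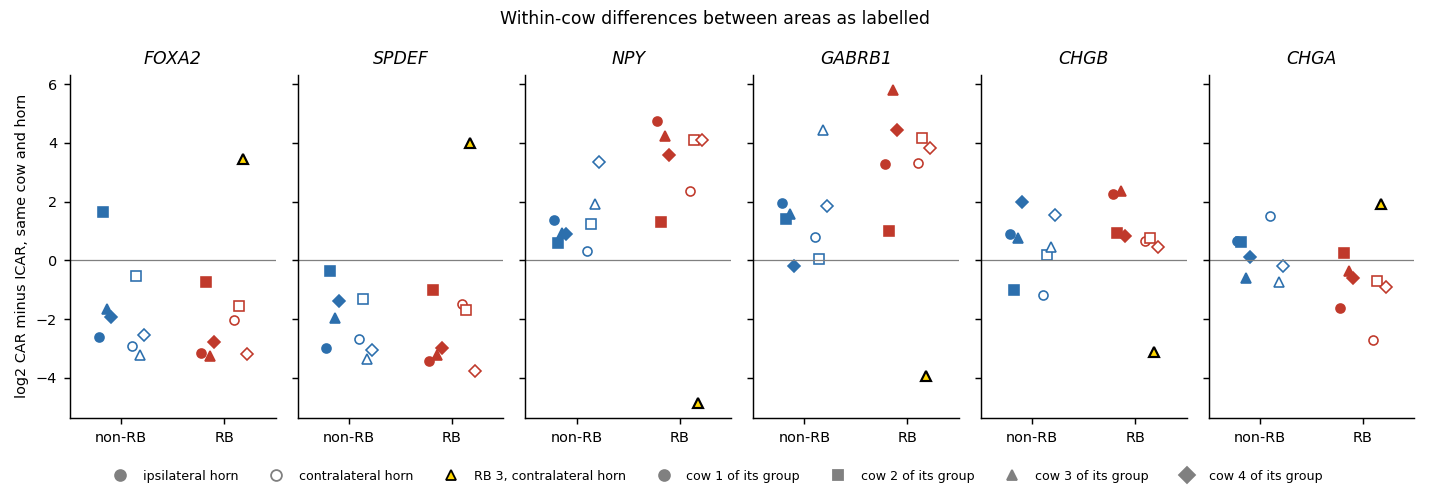
Difference in log2 level between CAR and ICAR of the same cow and horn, as labelled, for 2 gland genes and 4 of the studied genes. Each point is 1 pair of arrays and the horizontal line is no difference. The contralateral pair of RB 3 (gold) stands on the opposite side of the line from most pairs in every panel, at 3.44 for FOXA2 and -4.84 for NPY.

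NPY, a peptide of sympathetic nerves and many endocrine cells, was higher in CAR than in ICAR in 15 of 16 within-cow pairs, a count of at least 15 being reached by 0.533% of probes. NPY was chosen from this comparison, so nothing is read from that share. The exception was the contralateral pair of RB 3. Averaged by cow, the log2 difference was 1.89 (SE 0.40, n = 8 cows), or 3.69-fold, and 2.45 (SE 0.19), or 5.47-fold, without that pair. In ipsilateral CAR the RB cows read 0.42, -3.57, 0.38 and 0.13, and the non-RB cows -2.40, -1.10, -2.004 and -2.91. RB 2 was thus the single low reading in its group and lay below every non-RB cow, and the other 3 RB cows lay above all of them. In ipsilateral ICAR the RB cows read -4.31, -4.86, -3.86 and -3.45 and the non-RB cows -3.79, -1.67, -2.93 and -3.80. The groups overlapped there. In contralateral CAR the RB cows read -1.002, -0.11, -4.02 and 0.27, against -2.94, -1.01, -2.08 and -0.69 in non-RB cows. In contralateral ICAR the RB cows read -3.37, -4.20, 0.82 and -3.82, against -3.27, -2.27, -3.99 and -4.03. The lowest CAR reading and the highest ICAR reading were both of RB 3 in this horn.

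GABRB1 was higher in CAR in 14 of 16 pairs. It was well above background on 12 of 16 CAR arrays and on 2 of 16 ICAR arrays. The log2 difference by cow was 2.11 (SE 0.35, n = 8 cows), and 2.72 (SE 0.35) without the contralateral RB 3 pair. Most ICAR readings were near background, so the size of this difference depends on how background is treated. With normexp background correction, which pulls dim probes towards a common floor, the difference was 0.45. In ipsilateral CAR the RB cows read -6.26, -7.37, -4.25 and -5.25, and the non-RB cows -7.69, -6.80, -5.66 and -9.69. The groups overlapped. In ipsilateral ICAR of RB cows no array was well above background. Ipsilateral CAR of RB cows was there at least 3.60-fold higher, with the dim side set, array by array, to the lowest signal well above background. In contralateral ICAR of non-RB cows no array was well above background either. The same bound for their contralateral CAR was only 1.04-fold. In contralateral CAR the RB cows read -6.72, -4.90, -8.22 and -5.84, and the non-RB cows -7.85, -7.57, -5.79 and -8.30. The lowest of the RB readings came from the library labelled CAR of RB 3, whose partner labelled ICAR read -4.30 and was the only RB ICAR array well above background.

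Across all 12919 probes, no probe passed an adjusted p under 0.05 between areas with all 32 arrays (limma, by cow), a background of 0%, while 2165 had an unadjusted p under 0.05. Without the contralateral RB 3 pair 1612 of 12879 probes passed, or 12.5%. The members' own places in this comparison chose some of them and are not read against that share. The means of NPY and GABRB1 were higher in CAR within each of the 6 slides and 4 scan sessions that held both areas. A scan session here is the calendar month of the scan, with the day left out. Slides lay within sessions, and slide 1 was all of session 1, so these are not separate comparisons. They rest on the values that chose the genes, and nothing is read from them.

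**Figure D2:**
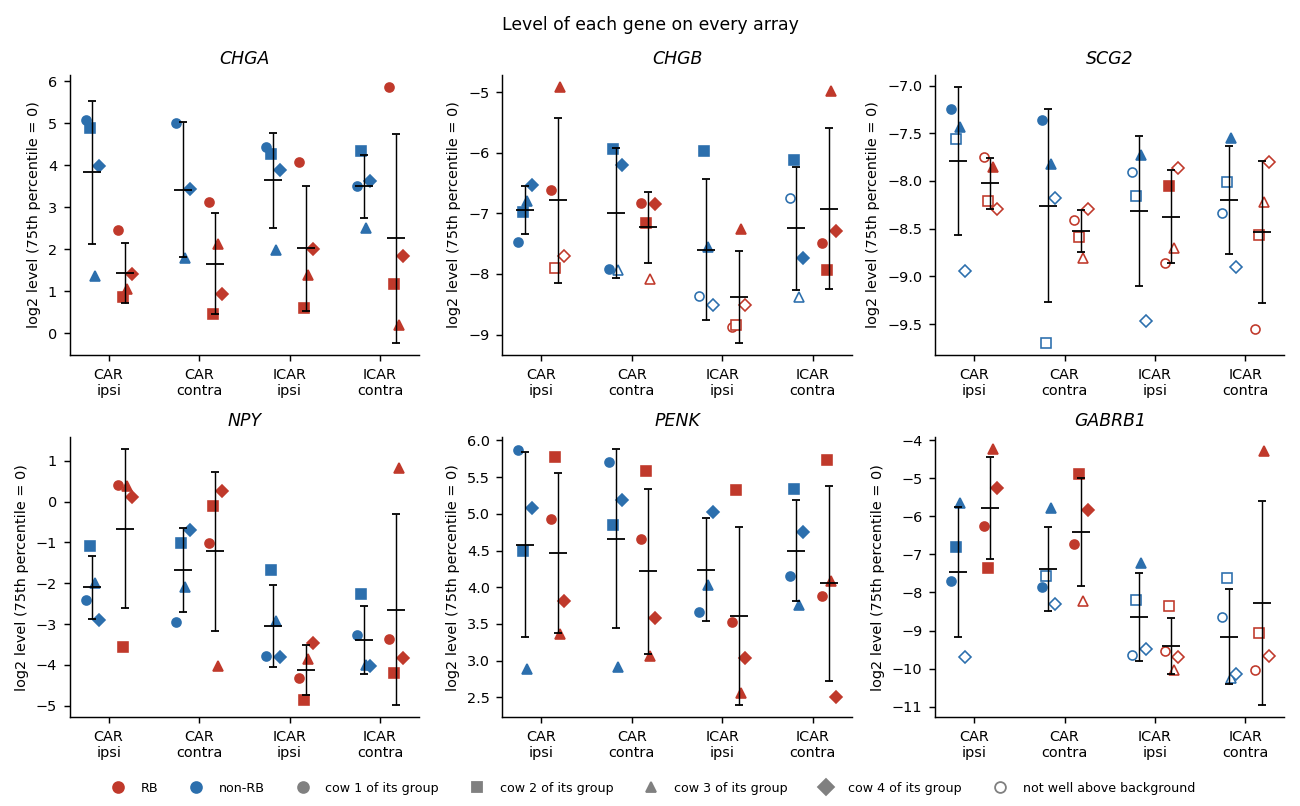
Log2 level of each gene on every array, by area and horn, with the 75th percentile of the array at 0. Points are single arrays, filled where the probe was well above background, and bars are the mean and SD of a group. NPY and GABRB1 are higher in the CAR columns, CHGA is lower in most RB cows, and most ICAR points of GABRB1 are open.

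The area difference of NPY and GABRB1 was then set side by side in RB and non-RB cows. This is built from the values that chose the genes and is given with no test. With all arrays the CAR minus ICAR difference of NPY in RB cows was 2.44 ± 1.89 (SD, n = 4), and in non-RB cows it was 1.33 ± 0.58 (SD, n = 4). The gap between them was 1.12 (SE 0.79). Without the contralateral RB 3 pair, RB 1 to 4 read 3.55, 2.69, 4.24 and 3.84, and non-RB 1 to 4 read 0.86, 0.92, 1.42 and 2.11. The groups did not overlap, which also held for 2.32% of all probes in this setting, and nothing is read from that share. The gap was 2.25 (SE 0.39). That pair was set aside for its gland genes, but NPY moved against the gland genes across arrays, with a Pearson r to FOXA2 of -0.66 within groups, so the setting is not neutral for NPY. The part of area mixing between libraries in this result was not tested.

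GABRB1 read in the same way. With all arrays its CAR minus ICAR difference was larger in RB cows by 1.25 (SE 0.69). Without the contralateral RB 3 pair the RB cows lay between 2.58 and 5.79 and the non-RB cows between 0.73 and 3.01. These ranges overlapped, and the gap was 2.47 (SE 0.70). The ICAR side of these differences was well above background on 2 of 16 arrays only, and ICAR readings near background entered their size. In non-RB 3, CAR read -5.66 (ipsilateral) and -5.79 (contralateral), and ICAR read -7.23 and -10.24. Its differences were thus 1.57 and 4.45. For CHGA the same gap was -0.84 (SE 0.59), or -1.12 (SE 0.49) without that pair, and for the other members between -0.05 and 0.36, or 0.13 and 0.87. Over all probes none passed the adjusted threshold for this interaction (0%, limma), and 112 had an unadjusted p under 0.05, or 663 without that pair.

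NPY and GABRB1 rose and fell together from array to array, with a Pearson r of 0.83 over 32 arrays. The points share cows, areas and array scaling, so this is a description. Within groups r was 0.71. Among the 16 ICAR arrays r was 0.84, but 0.53 without the contralateral RB 3 library, and among the 16 CAR arrays it was 0.66, or 0.63 without it. Most ICAR readings of GABRB1 were not well above background. GABRB1 ranked ninth among 3595 named genes in likeness to NPY, and NPY ranked 16th in likeness to GABRB1. The genes most like NPY were ACTC1 (r = 0.87), the actin of cardiac muscle, and CHRNA3 (r = 0.87), a nicotinic receptor subunit of autonomic ganglia. Those most like GABRB1 were the cytokine IL1A, the neurokinin B precursor TAC3 and DISP1, which releases hedgehog proteins, each with r = 0.88.

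**Figure D3:**
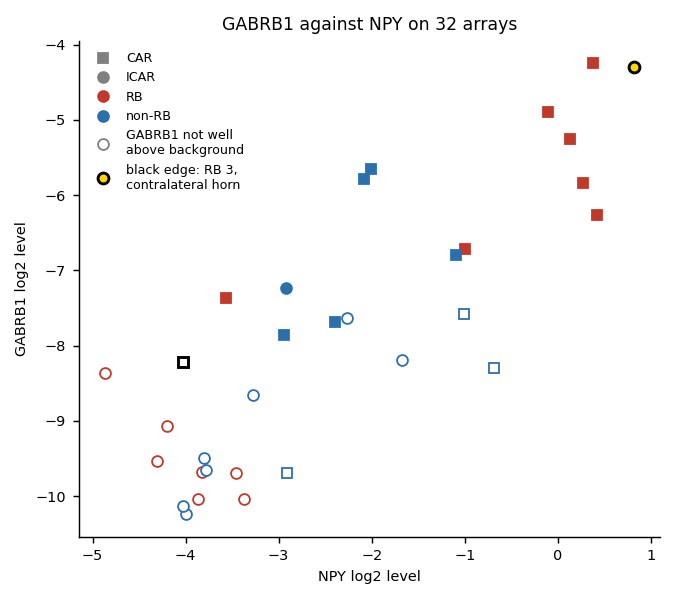
GABRB1 against NPY, log2 levels, 1 point per array (n = 32). CAR arrays (squares) gather at the upper right and ICAR arrays (circles) at the lower left. Among the RB 3 contralateral arrays, edged in black, the library labelled ICAR lies among the CAR arrays and the library labelled CAR among the ICAR arrays.

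CHGA was the granin with a clear signal, and it differed between cows more than between areas. Averaged over each cow's arrays, non-RB 1 to 4 stood at 4.50, 4.50, 1.91 and 3.73, and RB 1 to 4 at 3.88, 0.77, 1.19 and 1.54. RB 2, RB 3 and RB 4 lay below all non-RB cows, whereas RB 1 lay above non-RB 3 and non-RB 4, so the groups overlapped. RB cows averaged 1.85 ± 1.39 (SD, n = 4) and non-RB cows 3.66 ± 1.22 (SD, n = 4). RB minus non-RB was -1.82 (SE 0.75). It was -2.39 in ipsilateral CAR, -1.75 in contralateral CAR, -1.62 in ipsilateral ICAR and -1.23 in contralateral ICAR. Without the RB 3 library contralateral ICAR gave -0.54, and without RB 1 it gave -2.43. In ipsilateral CAR the RB cows read 2.45, 0.86, 1.05 and 1.40, and the non-RB cows 5.07, 4.88, 1.37 and 3.99. Non-RB 3 was the low reading in its group and fell among the RB cows. RB 1 ran from 2.45 in ipsilateral CAR to 5.85 in contralateral ICAR, the highest CHGA reading of the series. No probe passed an adjusted p under 0.05 for RB against non-RB in the whole uterus (0%, limma), and 286 had an unadjusted p under 0.05. In each of the 4 compartments the count was also 0 (0%), with 208 to 475 probes at an unadjusted p under 0.05.

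The slides held different cows. All arrays of RB 2 and RB 3, the lowest in CHGA, were on a slide without non-RB arrays. Slides 6 and 8 held both groups, and the RB minus non-RB difference of CHGA was -0.55 within slide 6 and -0.19 within slide 8. Slide 6 set RB 4 against non-RB 3, the lowest non-RB cow. Slide 8 set RB 1, the highest RB cow, against non-RB 1 and non-RB 2. With slide as a block, fitted over arrays, the CHGA difference was -0.39, against -1.82 by cow, and only slides 6 and 8 bear on it. In the same setting ipsilateral ICAR gave -0.08 and contralateral ICAR 0.41, the opposite direction. Contralateral CAR stayed between -2.24 and -1.32 over all alternatives, slide as a block among them. Ipsilateral CAR stayed between -3.25 and -1.97. No slide held both groups in ipsilateral CAR, so slide entered there as a random effect and could not be set apart from group. Slide and cow cannot be told apart for RB 2, RB 3, RB 4 and non-RB 4, each on a single slide. The other cows were spread over more than a single slide. How much of the CHGA difference goes with slide was not tested. Within the 3 scan sessions that held both groups, the CHGA difference over arrays was -3.65, -1.49 and 0.60. The 6 measured epithelial markers (KRT8, KRT19, CDH1, EPCAM, CLDN3 and CLDN4) read lower in RB cows on average, by a median of -0.54, though none had an unadjusted p under 0.05. Their summed level ranged from 12.8 to 61.1 (median 28.1) times the 75th percentile in RB arrays and from 20.5 to 76.1 (median 38.4) in non-RB arrays. The part of the epithelial share in the CHGA result was not tested, and in bulk tissue fewer cells and less RNA per cell cannot be told apart. CHGA was most like CAP1 (r = 0.88), an actin regulator, ACADVL (r = 0.85), an enzyme of mitochondrial fatty acid oxidation, and BCAM (r = 0.85), a laminin receptor of epithelial cells.

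**Figure D4:**
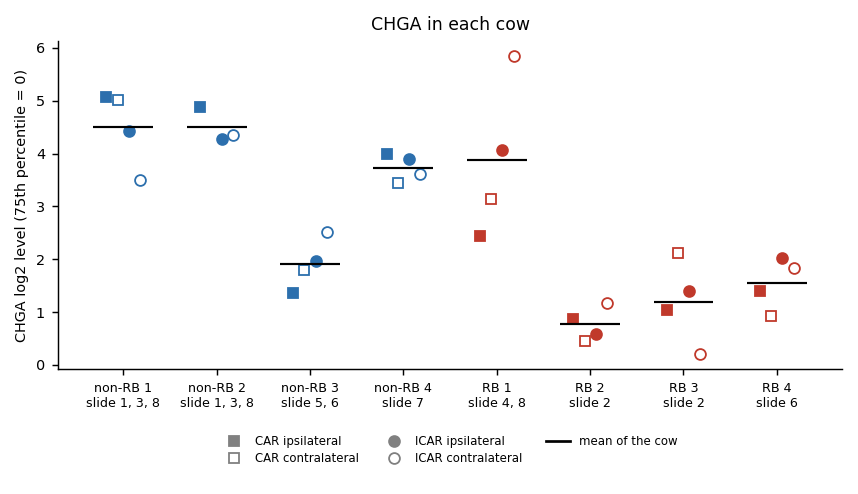
CHGA log2 level in each cow, with the slides its arrays were on. Points are single arrays by area and horn and the line is the mean of the cow. RB 2, 3 and 4 sit low at 0.77 to 1.54 and non-RB 3 at 1.91, while RB 1 sits at 3.88 among the other non-RB cows.

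CHGA did not share the area pattern of NPY. It was higher in CAR in 6 of 15 pairs, and its difference by cow was -0.17 (SE 0.30, n = 8 cows), or -0.31 (SE 0.25) without the contralateral RB 3 pair. CHGB, which is packed in the same granules, was dim and leaned towards CAR, higher there in 13 of 16 pairs with a difference of 0.55 (SE 0.26), and 0.89 (SE 0.26) without the contralateral RB 3 pair. Its 2 highest readings were both of RB 3, at -4.92 in ipsilateral CAR and -4.97 in the contralateral library labelled ICAR, and all others lay at -5.93 or below. Across arrays CHGB went with NPY (r = 0.75 within groups) and not with CHGA (r = -0.13). The genes most like CHGB were BCL2, an inhibitor of apoptosis (r = 0.76), NLN, the peptidase that cuts neurotensin (r = 0.75), and the kinase MAP2K6 (r = 0.74). SCG2, the source of secretoneurin, was near background throughout, from -9.69 to -7.24, and well above it on no contralateral array of RB cows, in CAR or ICAR. It leaned to neither area (0.20, SE 0.20) nor group (-0.22, SE 0.28). FLT1, a VEGF receptor, was the gene most like SCG2 (r = 0.67).

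PENK, the precursor of the enkephalins, gave a bright signal on every array, from 2.498 to 5.87. It set cows apart rather than areas or groups. Averaged over arrays, non-RB 1 to 4 stood at 4.85, 4.90, 3.39 and 5.01, and RB 1 to 4 at 4.25, 5.60, 3.27 and 3.23. The highest cow and the lowest cow were thus both RB, and the groups overlapped. Its difference was 0.34 (SE 0.28, n = 8 cows) between areas, or 0.45 (SE 0.27) without the contralateral RB 3 pair, and -0.45 (SE 0.56) between RB and non-RB cows. The gene most like PENK was F10, coagulation factor X (r = 0.74), followed by GAPDH (r = 0.66), a glycolytic enzyme, and the class II antigen gene BOLA-DQA1 (r = 0.63).

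For all 6 members the levels of the 8 groups formed an order with no step larger than the spread of its neighbours. For NPY and GABRB1 the order ran from ipsilateral CAR of RB cows (-0.66 ± 1.94 and -5.78 ± 1.34, SD, n = 4) down to ipsilateral ICAR of RB cows (-4.12 ± 0.60 and -9.41 ± 0.73, SD, n = 4), with all 4 CAR groups above all 4 ICAR groups. For CHGA all 4 non-RB groups, from 3.83 to 3.41, stood above all 4 RB groups, from 2.26 to 1.44.

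The side of the corpus luteum made no difference that passed a test. The mean ipsilateral minus contralateral difference of the 6 members ran from -0.33 (SE 0.21, limma adjusted p = 0.874, exact permutation p = 0.188 over 8 cows) for CHGB to 0.25 (SE 0.16, adjusted p = 0.874, exact permutation p = 0.188) for SCG2. No probe passed the threshold (0%), and 616 had an unadjusted p under 0.05. Without the contralateral RB 3 pair CHGB stood at -0.48 (SE 0.19, unadjusted p = 0.0346, adjusted p = 0.894), and SCG2 at 0.27 (SE 0.19, adjusted p = 0.894). The gap between horns in the RB minus non-RB difference, given with no test, ran from -0.47 (SE 0.49) for GABRB1 to 0.16 (SE 0.33) for SCG2. Over all probes none passed for it (0%), with 784 at an unadjusted p under 0.05. The standard errors leave room for differences of the size seen.

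Of the other genes of peptide storage, processing, reception and GABA signalling, 53 had a probe and 36 were well above background on at least 8 of 32 arrays. Between areas none of the 36 passed with all arrays (limma), and 9 had an unadjusted p under 0.05. Without the contralateral RB 3 pair 5 were higher in CAR and 4 higher in ICAR at an adjusted p under 0.05, against backgrounds of 6.72% and 5.79% of all probes in those directions. The median difference of the 36 genes was 0.07, beside 0.02 over all probes. These lists were drawn up with earlier results of these data known. The contralateral RB 3 pair was set aside because its gland genes stood turned between areas, so leaving it out is not neutral for area differences. Of the 9, 7 also passed when the ipsilateral non-RB 2 pair was left out too. NPY1R and PDYN did not.

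Among the peptide precursors, 2 of 17 were higher in CAR without that pair. TAC3, which encodes neurokinin B, was 2.26-fold higher (log2 1.18, SE 0.16, adjusted p = 0.0031), and SST, the somatostatin precursor, was 1.73-fold higher (0.79, SE 0.16, adjusted p = 0.011). With all arrays limma gave 0.85 for TAC3 (adjusted p = 0.105) and 0.79 for SST (adjusted p = 0.0994). PDYN, the prodynorphin precursor, was higher in ICAR (-0.997, SE 0.28, adjusted p = 0.0440). The other 14 did not pass, among them POMC, GAL, OXT and AVP. Among receptors, NPY1R, a main receptor of NPY, was higher in CAR like its ligand (0.58, SE 0.14, adjusted p = 0.0279). The tachykinin receptors TACR3 (-0.72, SE 0.14, adjusted p = 0.00938) and TACR2 (-0.48, SE 0.13, adjusted p = 0.0461) were higher in ICAR, the area in which TAC3 was lower. SSTR2 and CCKBR did not pass. NPY2R was well above background on 1 array and OPRM1, the mu opioid receptor at which enkephalins act, on none.

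The next values also leave out the contralateral RB 3 pair, unless all arrays are named. Among 8 genes of granule exocytosis, PTPRN, a membrane protein of dense-core granules, was higher in CAR (0.99, SE 0.18, adjusted p = 0.00903). The calcium sensor SYT1 was higher there too (0.81, SE 0.22, adjusted p = 0.0433). SLC18A2, which loads monoamines into vesicles, was higher in ICAR (-1.15, SE 0.22, adjusted p = 0.00961). The other 5 did not pass. With all arrays none passed, and limma gave 0.70 for PTPRN (adjusted p = 0.0994), 0.78 for SYT1 (adjusted p = 0.150) and -0.94 for SLC18A2 (adjusted p = 0.141). None of the 4 processing genes that could be tested passed, namely FURIN, CPE, PAM and QPCT. The first 3 were well above background on all 32 arrays. PCSK1 and PCSK2, the convertases of regulated granules, were each well above background on 1 array only. Of the GABA list, 2 genes besides GABRB1 were tested and neither passed, among them GABRP (-0.65, SE 0.25, adjusted p = 0.123), a receptor subunit. GABRA2, GABRA5 and the GABA-synthesising enzyme GAD1 were well above background on no array.

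**Figure D5:**
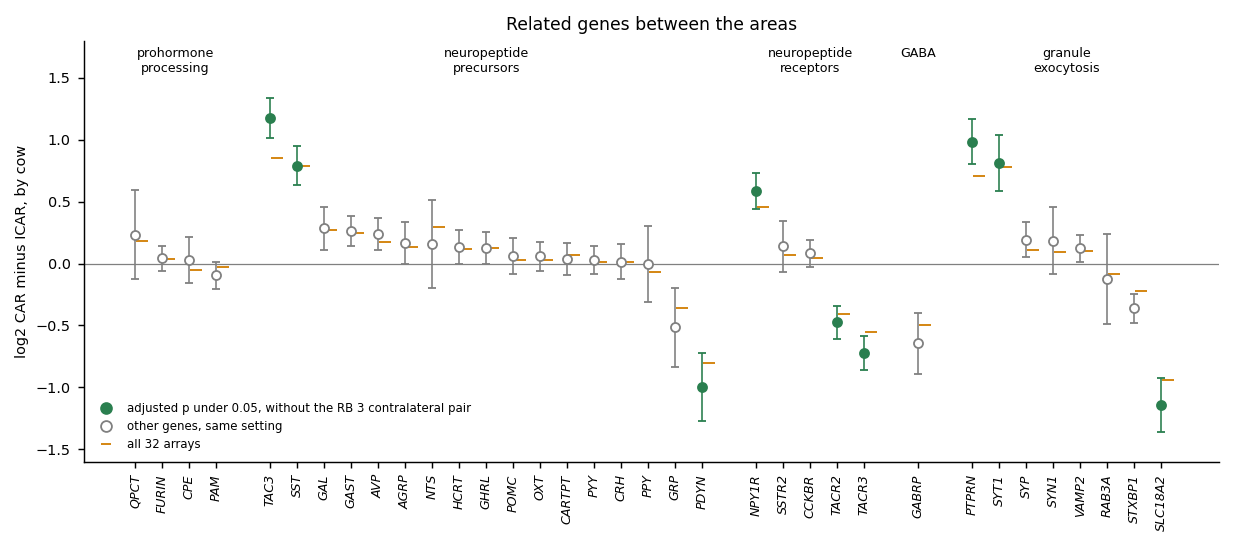
CAR minus ICAR difference in log2 level, by cow, of the related genes tested and reported here, by list. Circles with SE bars leave out the contralateral pair of RB 3, filled circles have an adjusted p under 0.05, and orange dashes are the values with all arrays. TAC3 (1.18) is highest and SLC18A2 (-1.15) is lowest, and the dashes of all 9 filled genes lie on the same side of 0 as their circles.

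Between RB and non-RB cows none of the 36 related genes passed, and 1, NTS, had an unadjusted p under 0.05. The largest positive values were 1.39 (SE 0.42) for NTS, the neurotensin precursor, 0.43 (SE 0.53) for PTPRN and 0.40 (SE 0.39) for NPY1R. The largest negative values were -0.60 (SE 0.37) for GAL, the galanin precursor, -0.57 (SE 0.30) for SSTR2 and -0.49 (SE 0.28) for AGRP. GRP, the gastrin-releasing peptide precursor, stood at -0.30 (SE 0.45). The study listed NTS and GRP from these same arrays, so neither is independent evidence of a direction.

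Markers of cells that could carry these genes were read beside them. Of the neuronal markers, UCHL1 and MAP2 were well above background on all 32 arrays and GAP43 on none. NCAM1 was higher in CAR without the contralateral RB 3 pair (0.63, limma adjusted p = 0.013). In the same setting UCHL1 (-0.09), STMN2 (-0.44) and MAP2 (-0.33) stood on the ICAR side and did not pass. ELAVL4, well above background on 8 arrays, stood at 1.604 with all arrays and was not tested without that pair. The summed level of the 7 neuronal probes lay at 0.0894 to 0.429 in CAR arrays and 0.0808 to 0.359 in ICAR arrays. Of the catecholamine markers, TH and DDC were well above background on all 32 arrays and the noradrenaline transporter SLC6A2 on none. Their summed level over 6 probes was 4.35 to 14.4 in CAR arrays and 3.57 to 12.8 in ICAR arrays. The part of nerve fibres in the NPY and GABRB1 values was not tested.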

How the data were processed

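Total RNA of 32 endometrial samples was labelled with Cy3 and hybridised to a custom 60-base bovine array by the authors, and images were read with Agilent Feature Extraction 9.5, per the labels. The deposited scanner files hold intensity values (gProcessedSignal) for each spot, background-corrected by the scanner software. The authors also deposited a log2 table, which equals log2 of the processed intensity minus each array's 75th percentile plus a constant of 0.004 to 0.014. Its column medians ran from -2.99 to -2.59, and it was used as an alternative.

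From the intensity values, log2 levels were computed relative to the 75th percentile of the non-control probes, and outlier-flagged spots were set missing. Probes that were well above background on 8 or more of the 32 arrays were kept (2 of 8 within a compartment). Fits used limma 3.58.1 in R 4.3.3 with Benjamini-Hochberg adjustment over all probes tested, and a call is an adjusted p under 0.05. Each cow gave 1 value per comparison, the mean of its arrays or of its within-cow differences, and exact permutation tests over cows were two-sided. Whether numbers mark cows was checked on deviations from group means. Same-numbered arrays correlated at a mean r of 0.41 in RB cows (over 0.1 in 22 of 24 pairs) and 0.38 in non-RB cows (21 of 24), different numbers at -0.14 and -0.12. The labels do not state it.

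The members and lists were chosen with earlier results of these data known. Named genes were the members, related genes past the threshold between areas or horns, the 3 largest values each way between RB and non-RB cows, GRP and NTS, and the 3 genes with the highest r to a member. For SCG2 the first and for NPY the leading 2 are given, and a few genes of the lists are not reported here. Scripts were tested on simulated data. RefSeq names came from the ARS-UCD2.0 table. Alternatives were quantile and normexp (offset 50) processing, the deposited table, other filters, left-out cows and arrays, the methods' t-test over all arrays, and slide and scan session as blocks. Coordinates were not used here.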

Additional observations from a re-analysis of the deposited data

Results flagged for a closer look

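Among 46 groups of 4 arrays tested for a reading far from the rest, 3 were marked, and chance marks about 1 in 20. NPY in ipsilateral CAR of RB 2 read -3.57, against 0.13 for the nearest of the other 3 RB cows. FOXA2 in that library was -1.44 and SPDEF -0.33, the highest ipsilateral CAR readings of SPDEF and second to non-RB 2 for FOXA2. NPY in the contralateral library labelled ICAR of RB 3 read 0.82, against -3.37 for the nearest, and GABRB1 in that library read -4.30, against -9.07. FOXA2 and SPDEF were at -3.87 and -2.79 in that library, as low as in CAR libraries. Whether tissue or tubes were exchanged was not tested.

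The area difference of NPY was larger in RB than in non-RB cows by 2.25 without the contralateral RB 3 pair, where the cows of the groups did not overlap, and by 1.12 with it. NPY was chosen from values that enter this difference, so it is a description and no test is given.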

How the results depend on the processing

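The number of probes past the threshold depended on the setting. Between areas it was 0 with all arrays by cow, 174 with no replicate block, 250 with slide as a block, 0 to 827 when single cows were left out (827 without RB 3, 271 without non-RB 2), 1612 without the contralateral RB 3 pair and 1514 without that pair and the ipsilateral non-RB 2 pair. For RB against non-RB in the whole uterus it was 0 by cow and 0 with the replicate block as a random effect, but 47 with no replicate block, 67 by the methods' t-test, 44 with scan session and 22 with slide as a block. Without the replicate block, that is without pairing by cow, the horn comparison and both interactions stayed at 0 probes. Slide as a block gave 1 probe between horns. In contralateral ICAR 0 to 1 probe was called when single cows were left out. It was 1 without the 2 uneven arrays, contralateral CAR of non-RB 2 and contralateral ICAR of non-RB 1.

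CHGA in RB against non-RB cows was -0.39 with slide as a block and between -2.49 and -1.46 when single cows were left out. Only slides 6 and 8, which held both groups, bear on slide-block values between RB and non-RB cows. NPY between areas ran from 1.64 to 2.49 over all alternatives. GABRB1 ran from 1.86 to 2.72 except for 0.45 with normexp, and was near background in ICAR. SCG2 between horns turned to -0.0105 with normexp and -0.0122 with slide as a block, and GABRB1 in the RB by horn comparison to 0.0441 with normexp. SCG2 in that comparison ran from -0.125 (without non-RB 4) to 0.427 (without non-RB 2) when single cows were left out, and to 0.479 over all alternatives. GABRB1 in RB against non-RB cows, 0.69 by cow, was -0.54 with slide as a block. Of 697 further values under an alternative, 44 had the opposite sign to the value by cow, of a size up to 1.09, CHGB in contralateral CAR (9) and in contralateral ICAR (7) most often. The causes were not tested.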

Other observations

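Markers of other cells were read between areas without the contralateral RB 3 pair (limma, adjusted p under 0.05). S100B, a Schwann cell marker also made by other cells, was higher in ICAR (-1.04), and MBP did not pass. EPCAM (-0.68) and KRT8 (-0.67) were higher in ICAR, the other 4 epithelial markers did not pass, and PRSS23 of the gland list did not pass. PDGFRA of the stromal list (0.64) and DES of the smooth muscle list (0.76) were higher in CAR, while VIM (0.04) and NR2F2 (0.80) of the first list and CNN1 (0.32), ACTG2 (-0.04) and ACTA2 (-0.06) of the second did not pass. PNMT, which makes adrenaline, was higher in CAR with 1 of its 2 probes (1.15, adjusted p = 0.0125) and not with the other (1.04, adjusted p = 0.0553). None of the 5 endothelial and 5 leukocyte markers passed.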
